A study of Mus musculus with 34 samples.

Results

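The T-box transcription factors Tbx2, Tbx3, Tbx4 and Tbx5 were followed in murine small cell lung cancer (SCLC), a tumor of neuroendocrine lung cells, under the LSD1 inhibitor bomedemstat (BOM). The 4 genes, out of 30750 genes in the count tables, were taken by symbol. They were chosen by the level of Tbx2, which was much higher in BOM-treated than in DMSO-treated cultures at 96 h and 10 d. The BOM comparisons of these 4 genes in culture are thus given below as a description, without tests. Lists of other genes and chromosomal neighbors were tested there, and the lists were chosen with earlier results of these data known. LSD1, the product of Kdm1a, is a histone demethylase that takes methyl groups off histone H3. RNA sequencing covered 34 libraries in 3 experiments, and all of them used SCLC cell lines or tumors grown from such a line. In the 96 h experiment RP-116, RP-48 and G8545 cells received BOM or its solvent DMSO, and each line gave a single library under each (n = 3 BOM, n = 3 DMSO). In the 10 d experiment the line RP-48OVA-LLO190 was cultured with BOM plus interferon gamma (IFNg, n = 2), DMSO plus IFNg (n = 3), BOM alone (n = 2) or DMSO alone (n = 3), with IFNg present for the last 48 h. In the tumor experiment RP-48OVA-LLO190 cells grew in the flank of immunocompetent mice that received BOM plus anti-PD1, an antibody that blocks the PD-1 checkpoint on T cells (n = 4), anti-PD1 alone (n = 5), BOM alone (n = 4) or vehicle (n = 5) for 16 d. Each 10 d and tumor group is thus a model of a single line.

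T-box proteins bind DNA through a shared domain, the T-box. Tbx2 and Tbx3 act mostly as transcriptional repressors. They are known for silencing inhibitors of the cell cycle and thereby opposing senescence, and both are expressed in several cancers. Tbx4 and Tbx5 act mostly as activators and are best known from limb and heart development. In the embryonic lung all 4 are expressed in the mesenchyme, where Tbx4 and Tbx5 promote branching through Fgf10 signaling and Tbx2 and Tbx3 keep the tissue proliferating. Their genes stand in neighboring pairs, Tbx2 beside Tbx4 and Tbx3 beside Tbx5.

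That arrangement holds in the mouse genome build mm10 with the GENCODE M21 annotation. Tbx2 (ENSMUSG00000000093.6) lies at chr11:85832551-85841948 on the plus strand, with 7 exons, and Tbx4 (ENSMUSG00000000094.12) lies at chr11:85886422-85916097 on the same strand. Tbx3 (ENSMUSG00000018604.18) lies at chr5:119670669-119684724 and Tbx5 (ENSMUSG00000018263.11) at chr5:119832668-119885219, both on the plus strand. The coding sequences encode 711 residues for Tbx2, 741 for Tbx3, 552 for Tbx4 and 518 for Tbx5. Since Tbx2 and Tbx3 are related and went different ways in these data, the 90 coding bases that begin at base 288 in Tbx2 and at base 282 in Tbx3 are shown 5′ to 3′ from the GENCODE transcripts, with capitals at the bases that differ.
Tbx2: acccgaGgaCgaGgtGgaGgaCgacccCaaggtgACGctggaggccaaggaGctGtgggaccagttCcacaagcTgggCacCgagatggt
Tbx3: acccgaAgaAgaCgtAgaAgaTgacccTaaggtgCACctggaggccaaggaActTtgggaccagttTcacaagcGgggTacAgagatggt
The stretches were placed around the longest run that the Tbx2 and Tbx3 coding sequences share. They are identical at 74 of 90 bases, or 82.2%, which is not the identity over the whole coding sequences. The longest run of bases shared anywhere by the Tbx2 and Tbx3 coding sequences was 14, and 0% of the 50-base stretches of any of the 4 genes occurred in another, so a read of that length within these coding sequences points to 1 of the 4 genes. Of the 4 genes, Tbx3 alone shared exonic bases with another annotated gene, 115 with the antisense gene Tbx3os1, and the library kit does not mark the strand.

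Column totals ran from 8.71 to 9.97 M counts in the 96 h experiment, from 5.90 to 9.04 M in the 10 d experiment and from 5.64 to 82.2 M over tumors, where vehicle tumor 1 had the highest and the next had 13.2 M. Levels are counts divided by the column total and scaled to 1 M (CPM). All 12 SCLC neuroendocrine markers, among them Chga, Syp and Insm1, had counts in every library. Changes are log2 fold changes from edgeR's quasi-likelihood fit over all genes tested, 13333 at 96 h, 15230 at 10 d and 14332 in tumors, and a gene was called at a Benjamini-Hochberg adjusted p under 0.05.

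Tbx2, the repressor for which the 4 genes were chosen, was higher with BOM in every line at 96 h. The level was 6.23 CPM with BOM in RP-116, against 0.803 CPM with DMSO. In G8545 it was 6.65 CPM with BOM, against 1.21 CPM with DMSO. In RP-48 it was 1.10 CPM with BOM, against 0.539 CPM with DMSO. The BOM value was thus above the DMSO value in 3 of 3 lines, but the RP-48 value with BOM was below the G8545 value with DMSO, so the groups overlapped. The ratio of BOM to DMSO was smallest in RP-48, at 2.05 from 11 and 5 counts. Its exact 95% interval for counting error, 0.655 to 7.51, includes both no difference and the G8545 ratio. The ratio was 7.76 in RP-116 (55 and 7 counts, 3.52 to 20.2) and 5.52 in G8545 (66 and 12 counts, 2.96 to 11.2). These intervals describe counting error in single libraries and test neither BOM nor a difference between lines. The group averages were 4.66 ± 3.09 CPM with BOM and 0.849 ± 0.335 CPM with DMSO (SD, n = 3 each), and the log2 fold change of 2.30 was the 11th highest among the 13333 genes. In this experiment edgeR called 0% of genes in either direction, with 812 genes at an unadjusted p under 0.05 and 59 genes called by DESeq2.

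After 10 d in RP-48OVA-LLO190 cells the Tbx2 difference was much larger. Tbx2 was at 115 and 90.05 CPM with BOM, against 7.54, 3.60 and 3.90 CPM with DMSO. With IFNg it was at 107 and 75.3 CPM with BOM plus IFNg, against 3.74, 3.99 and 3.79 CPM with DMSO plus IFNg. All 4 libraries with BOM stood far above all 6 without it, and no groups overlapped. The log2 fold change was 4.25 without IFNg, a 19.0-fold difference that was the 30th highest among 15230 genes, and 4.49 with IFNg, a 22.5-fold difference that was the 20th highest. The calls over all genes were 20.3% for BOM against DMSO and 23.1% for BOM plus IFNg against DMSO plus IFNg. The Tbx2 fold differed between the 96 h and 10 d experiments, which also differ in cell line, duration and RNA selection, so these cannot be told apart.

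**Figure D1:**
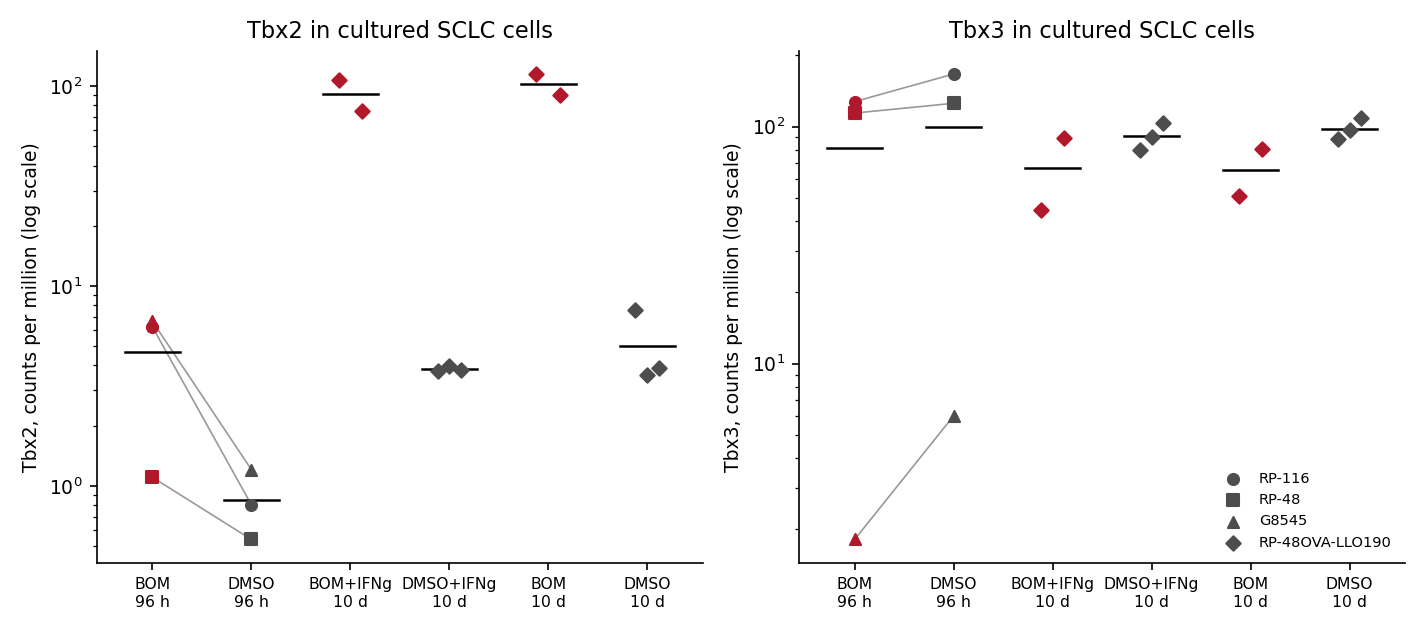
Tbx2 and Tbx3 levels in CPM on a log axis in each cultured library, with BOM libraries in red, DMSO libraries in grey, black bars at group means, and lines joining the treatments of each cell line at 96 h. Tbx2 with BOM lies at 75.3 to 115 CPM in the 10 d libraries, above every library with DMSO, while Tbx3 lies at 44.6 to 109 CPM at 10 d under all treatments and is lowest at 96 h in G8545.

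Fibroblast markers were also higher in the 10 d cultures with BOM. The summed level of 12 fibroblast markers was 90.05 to 92.5 CPM with BOM, against 21.6 to 27.8 CPM with DMSO, and 66.2 to 74.3 CPM with BOM plus IFNg, against 19.0 to 23.5 CPM with DMSO plus IFNg. Of the 8 markers tested, 6 rose with BOM and none fell, beside 20.3% of all genes called, with a median log2 fold change of 2.04 against -0.01 over all genes. They were Col1a1 (2.77) and Col3a1 (1.53), which encode fibrillar collagens, Lum (2.56), a collagen-binding proteoglycan, Mmp2 (2.69), a matrix protease, and the receptors Pdgfra (1.16) and Pdgfrb (2.58). All 12 had counts in every library with BOM, and 10 of 12 in every library with DMSO. Endothelial marker sums did not overlap either, at 41.7 to 59.6 CPM with BOM, against 23.6 to 25.7 CPM with DMSO, and at 62.2 to 65.4 CPM with BOM plus IFNg, against 26.1 to 32.7 CPM with DMSO plus IFNg. Of the 5 endothelial markers tested, Kdr, a VEGF receptor gene, rose with BOM (2.08) and Vwf, a clotting factor carrier gene, fell (-2.43), and Cdh5 and Cldn5 were at 0 counts in the BOM libraries. The neuroendocrine markers summed to 3671 to 4064 CPM in the BOM libraries, against 3256 to 3799 CPM in the DMSO libraries, with ranges that overlapped. Single markers moved both ways under that sum. Of the 12 tested, 4 rose and 1 fell with BOM, beside 20.3% of all genes called. With IFNg 3 rose and 3 fell with BOM, beside 23.1% of all genes called. At 96 h Col1a2 was at 0 counts in every library and Col3a1 in those with BOM. In bulk samples, more cells of a type and more RNA per cell cannot be told apart, and the part of other cells in the Tbx2 level was not tested.

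IFNg by itself left no difference in Tbx2 or Tbx3 that passed the test. The IFNg comparisons share the DMSO or BOM libraries with those that chose the genes, and edgeR called 2.27% of genes for IFNg in DMSO cultures and 2.06% in BOM cultures. For Tbx2 the log2 fold change of DMSO plus IFNg against DMSO was -0.41 ± 0.29 (SE, 95% interval -1.02 to 0.20, edgeR adjusted p = 0.829). That of BOM plus IFNg against BOM was -0.17 ± 0.18 (-0.55 to 0.21, adjusted p = 0.854). The DMSO difference rests on DMSO culture 1, at 7.54 CPM, and was 0.023 without it. For Tbx3 the values were -0.10 ± 0.20 in DMSO cultures (-0.52 to 0.32, edgeR adjusted p = 0.964) and 0.05 ± 0.25 in BOM cultures (-0.48 to 0.58, adjusted p = 0.980). The intervals leave room for a change of up to about 1 log2 unit downward in Tbx2 in DMSO cultures.

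In flank tumors Tbx2 was low in every group, and BOM made no difference that passed the test. Tbx2 was at 1.21, 1.11, 3.54 and 0.890 CPM in BOM tumors, against 1.87, 2.21, 1.06, 1.23 and 2.20 CPM in vehicle tumors. It was at 2.38, 1.67, 1.04 and 2.56 CPM in BOM plus anti-PD1 tumors, against 3.02, 1.56, 3.17, 1.43 and 1.52 CPM in anti-PD1 tumors. All groups overlapped. BOM tumor 3 stood apart from the other BOM tumors, with anti-PD1 tumors 1 and 3 close below it. The BOM values rest on 9, 9, 26 and 7 counts, so counting error alone is wide. The log2 fold change was -0.08 ± 0.41 for BOM against vehicle (SE, 95% interval -0.94 to 0.78, edgeR adjusted p = 0.930). It was -0.18 ± 0.42 for BOM plus anti-PD1 against anti-PD1 (-1.05 to 0.69, adjusted p = 0.773). Both intervals lie below the log2 fold changes of 4.25 and 4.49 that described the cultured cells of the same line. Tbx2 was chosen for its higher level with BOM in those cultures, so these values can be too large. The tumors also differed from those cultures in setting, duration and RNA selection, and the part of each was not tested. The tumor and culture tables were not tested against each other. Without BOM tumor 3 the value for BOM against vehicle was -0.71, which also did not pass.

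Nor did anti-PD1 move Tbx2 past the test. The comparisons of anti-PD1 with vehicle and of BOM plus anti-PD1 with BOM share tumors with those above. The log2 fold changes were 0.29 ± 0.38 for anti-PD1 against vehicle (edgeR adjusted p = 0.820) and 0.19 ± 0.44 for BOM plus anti-PD1 against BOM (adjusted p = 0.951). Their difference, the interaction, was -0.10 ± 0.59 (adjusted p = 0.971). Over all genes edgeR called 0% for anti-PD1 against vehicle (1411 genes at an unadjusted p under 0.05, 86 called by DESeq2), 0.00698% for BOM plus anti-PD1 against BOM and 0% for the interaction (1258 unadjusted, 6 by DESeq2). Beside BOM tumor 3, the summed fibroblast markers were at 1717 CPM in it, against 601 to 2145 CPM over the BOM tumors and 679 to 1509 CPM over the vehicle tumors. BOM tumor 2 had the highest of these sums with Tbx2 at 1.11 CPM. Anti-PD1 tumors 1 and 3, with Tbx2 at 3.02 and 3.17 CPM, had fibroblast sums of 2427 and 1569 CPM. The other anti-PD1 tumors had sums of 300 to 530 CPM. The part of fibroblasts in the Tbx2 level of tumors was not tested.

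**Figure D2:**
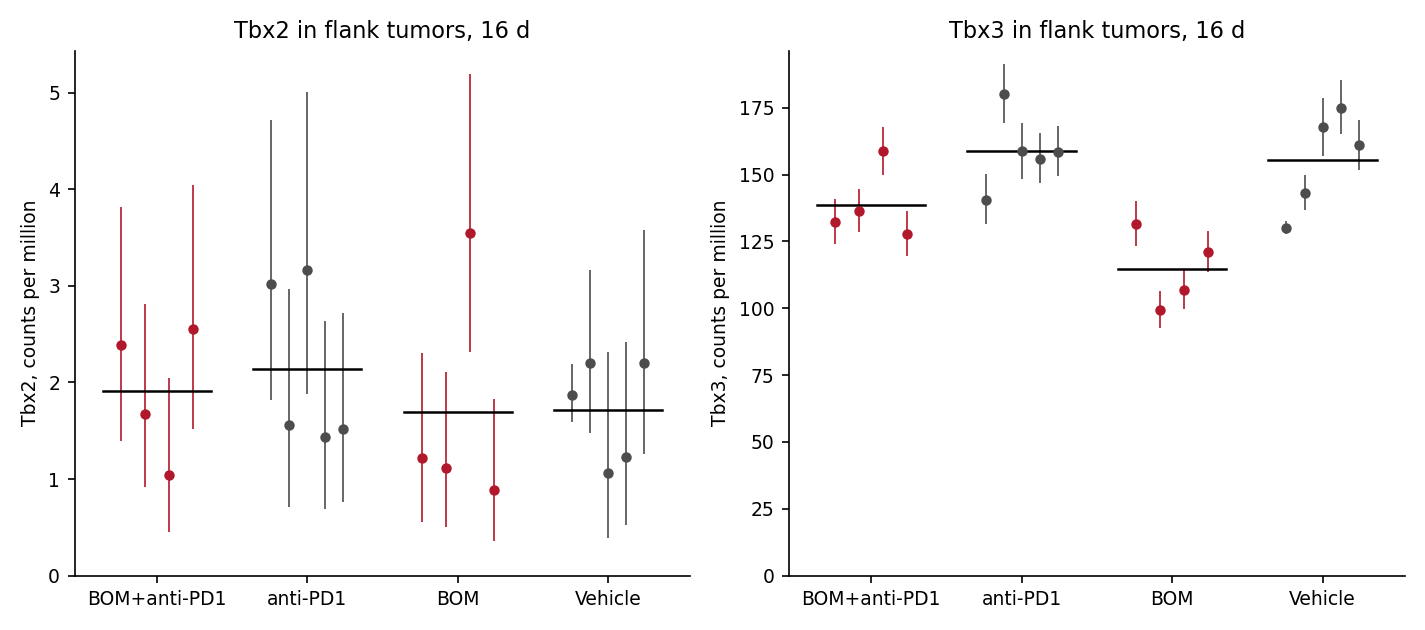
Tbx2 and Tbx3 levels in CPM in each tumor, on linear axes from 0, with BOM-treated groups in red, vertical lines for 95% counting intervals and black bars at group means. Tbx2 stays between 0.890 and 3.54 CPM in all groups, and 3 of the 4 Tbx3 points of BOM alone lie below every vehicle tumor.

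Tbx3, the other repressor of the pair, was lower with BOM on average in every culture, with large differences between lines. At 96 h it was at 127 CPM with BOM in RP-116, against 167 CPM with DMSO. In RP-48 it was at 114 CPM with BOM, against 125 CPM with DMSO. In G8545 it was at 1.81 CPM with BOM, against 6.03 CPM with DMSO. The line set the level here, with G8545 far below the other two under either treatment, and BOM was below DMSO in 3 of 3 lines. The ratio of BOM to DMSO was 0.765 in RP-116, 0.909 in RP-48 and 0.301 in G8545. The last had an exact interval for counting error alone of 0.167 to 0.517, from 18 and 60 counts. The log2 fold change of the fit was -0.53, and -0.28 without G8545.

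At 10 d the Tbx3 difference depended on which BOM library was read. Tbx3 was at 51.1 and 80.3 CPM with BOM, against 88.4, 97.1 and 109 CPM with DMSO. It was at 44.6 and 89.2 CPM with BOM plus IFNg, against 79.5, 90.7 and 104 CPM with DMSO plus IFNg. Both BOM libraries lay below all DMSO libraries, whereas with IFNg the second BOM library lay among those with DMSO. The log2 fold change was -0.64 for BOM against DMSO and -0.49 with IFNg. Without the first library of the group these became -0.32 and -0.081, and without the second -1.03 and -1.11.

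Per kilobase of gene length the treatments exchanged the order of Tbx2 and Tbx3 at 10 d. The ratio of Tbx2 to Tbx3, in CPM per kb, was 4.10 and 2.05 with BOM, against 0.0654 to 0.156 with DMSO. It was 4.39 and 1.54 with BOM plus IFNg, against 0.0668 to 0.0858 with DMSO plus IFNg. Tbx2 was thus the higher of the pair in all 4 libraries with BOM and the lower in all 6 with DMSO. At 96 h it was the higher in a single library, G8545 with BOM, at a ratio of 6.70, against 0.365 with DMSO. In RP-116 the ratio was 0.0893 with BOM, against 0.00881 with DMSO, and in RP-48 it was 0.0177 with BOM, against 0.00785 with DMSO.

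Tbx3 was the member whose level differed past the test in tumors, which the choice of genes did not use. Tbx3 fell in BOM tumors to 0.735 times its level in vehicle tumors. It was at 131.5, 99.5, 107 and 121 CPM in BOM tumors, against 130.1, 143, 168, 175 and 161 CPM in vehicle tumors. The groups overlapped only where BOM tumor 1 stood level with vehicle tumor 1. The averages were 115 ± 14.3 CPM in BOM tumors (SD, n = 4) and 155 ± 18.4 CPM in vehicle tumors (SD, n = 5). The log2 fold change was -0.44 ± 0.10 (SE, 95% interval -0.65 to -0.24, edgeR adjusted p = 0.00684), in a comparison where 14.5% of all genes were called and 8.63% were called lower. The call held in all 25 alternatives, at log2 fold changes of -0.56 to -0.38.

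With anti-PD1 present the Tbx3 difference was smaller and missed the threshold. Tbx3 was at 132, 136, 159 and 128 CPM in BOM plus anti-PD1 tumors, against 141, 180, 159, 156 and 159 CPM in anti-PD1 tumors. The lowest 3 of these tumors all had BOM, and the groups overlapped at the fourth. The log2 fold change was -0.22 ± 0.10 (SE, 95% interval -0.42 to -0.01, edgeR adjusted p = 0.0969), beside 32.4% of all genes called. The interaction of BOM and anti-PD1 was 0.23 ± 0.14 (-0.07 to 0.52, adjusted p = 0.645), so the BOM differences with and without anti-PD1 were not shown to differ. Tbx3 in BOM plus anti-PD1 tumors against BOM tumors had a log2 fold change of 0.28 ± 0.10 (adjusted p = 0.567), and in anti-PD1 tumors against vehicle tumors 0.06 ± 0.09 (adjusted p = 0.863).

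**Figure D3:**
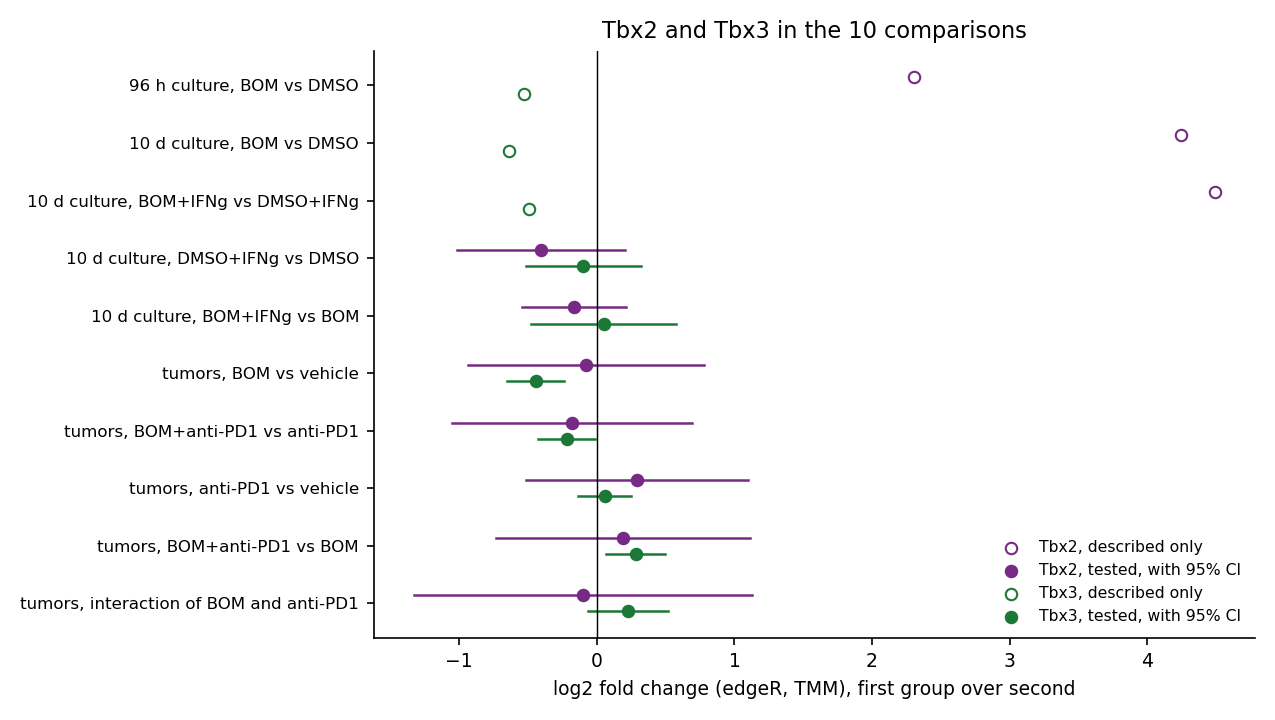
Log2 fold changes of Tbx2 (purple) and Tbx3 (green) in the 10 comparisons, with open circles where the comparison chose the genes and filled circles with 95% intervals where it was tested. The open Tbx2 circles lie at 2.30 to 4.49, all filled Tbx2 intervals include 0, and the Tbx3 interval for BOM against vehicle tumors runs from -0.65 to -0.24.

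Markers of cell identity moved in BOM tumors with and without anti-PD1. Of the 12 neuroendocrine markers, 8 fell and 2 rose in BOM against vehicle tumors, beside 14.5% of all genes called and 8.63% called lower, with a median log2 fold change of -0.46 against -0.02 over all genes. Neurod1 (-1.52, edgeR adjusted p = 0.00513) and Calca (-1.01, adjusted p = 0.00392) were among those that fell, and the neuroendocrine factor Insm1 (0.41) was among those that rose. Their summed level was 2978 to 3441 CPM in BOM tumors, against 3108 to 3705 CPM in vehicle tumors. Of the 12 fibroblast markers edgeR called 0 (1 at an unadjusted p under 0.05, 1 by DESeq2), 1 of 10 endothelial markers fell, and endothelial sums were 191 to 283 CPM in BOM tumors, against 259 to 292 CPM in vehicle tumors. Skeletal muscle markers summed to 1225 CPM in BOM tumor 2 and to 144 CPM at most in vehicle tumors. Without BOM tumor 2 the Tbx3 log2 fold change was -0.38 (edgeR adjusted p = 0.0389). In BOM plus anti-PD1 against anti-PD1 tumors, where Tbx3 missed the threshold, 6 of the 12 neuroendocrine markers fell and 0 rose. That stood beside 32.4% of all genes called in either direction, with a median log2 fold change of -0.41. There 1 of 7 macrophage markers and 2 of 6 T and NK cell markers tested rose and 0 fell, with medians of 0.58 and 1.13. The part of the cell makeup in the Tbx3 difference was not tested.

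Tbx4 and Tbx5, the activators of the group, were at or near 0 counts throughout. At 96 h Tbx4 had 6 counts in all, in 3 of 6 libraries, and at most 0.344 CPM. Tbx5 had 0 counts in all 6, which allows up to 0.301 to 0.344 CPM per library, taking 3 counts as the limit for a count of 0. At 10 d Tbx4 had 20 counts in 7 of 10 libraries. Its highest level, 0.977 CPM from 7 counts, was in DMSO culture 1, and the BOM cultures had 0 and 4 counts. With IFNg Tbx4 was at 0.483 and 0.221 CPM with BOM plus IFNg, against 0.149, 0.160 and 0 CPM with DMSO plus IFNg. These levels rest on a few counts each, in libraries where Tbx2 was at 75.3 to 115 CPM with BOM. Tbx5 had 1 count in the whole experiment. Over the 18 tumors Tbx4 had 1 count and Tbx5 had 2, with limits of 0.0365 to 0.532 CPM for Tbx4 where the count was 0. Neither gene passed the filter on low counts in any experiment. With 1 count or none in each comparison of BOM-treated tumors with their controls, no test over tumors could separate the groups, and none is given.

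Of the 13 other T-box genes of the mouse, Tbx1, Tbx15 and the Max-binding factor Mga were set beside Tbx2 and Tbx3 per kilobase. In 10 d cultures with BOM, Tbx2 averaged 28.2 CPM per kb, Mga 21.9, Tbx1 19.8, Tbx3 9.92 and Tbx15 4.32. With DMSO the order was Mga at 21.6, Tbx3 at 14.8, Tbx1 at 12.3, Tbx15 at 2.71 and Tbx2 at 1.38 CPM per kb. At 10 d Tbx2, for which the genes were chosen, was thus first of these 5 genes with BOM and last with DMSO.

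Of those 13 genes 3 were tested at 96 h and 5 in each other experiment. At 96 h edgeR called 0 of 3 (0 at an unadjusted p under 0.05, 0 by DESeq2). At 10 d Tbx1, a factor of pharyngeal and heart development, rose with BOM by a log2 fold change of 0.61 (edgeR adjusted p = 0.000461), the only one of 5. With IFNg both Tbx1 (0.34, adjusted p = 0.0268) and Tbx15 (0.91, adjusted p = 0.00396), a factor of skeletal and muscle development, rose with BOM. Each of these last calls was lost without the second BOM plus IFNg culture, at 0.25 (adjusted p = 0.274) for Tbx1 and 0.62 (adjusted p = 0.128) for Tbx15. That of Tbx1 was also lost without the second or the third DMSO plus IFNg culture (adjusted p = 0.0718 and 0.0645) and without the filter on low counts (0.0538). In BOM against vehicle tumors 0 of 5 was called (2 unadjusted, 0 by DESeq2), with Tbx1 at -0.19 and Tbx15 at 0.35. In BOM plus anti-PD1 against anti-PD1 tumors Tbx15 rose by 0.85 (edgeR adjusted p = 0.000327) and Tbx1 fell by 0.47 (adjusted p = 0.000337). The median over the tested genes was 0.19 at 96 h, -0.05 and 0.34 at 10 d without and with IFNg, and -0.01 and 0.14 in tumors without and with anti-PD1, against -0.02 to -0.01 over all genes.

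**Figure D4:**
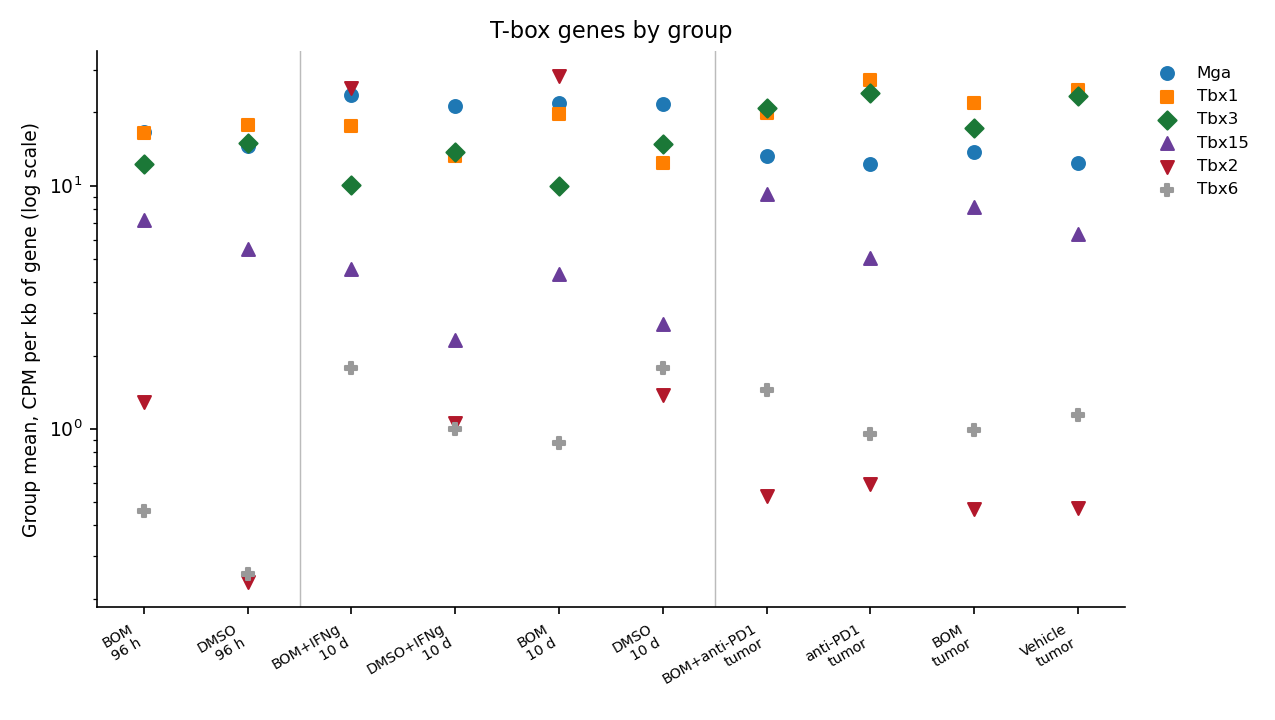
Mean level of 6 T-box genes in each of the 10 groups, in CPM per kilobase on a log axis. Tbx2, chosen for its higher level with BOM in culture, lies between 0.234 with DMSO at 96 h and 28.2 with BOM at 10 d. These 2 experiments differ in cell line, duration and RNA selection. Mga and Tbx1 lie between 12.3 and 27.1 in all groups.

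Genes that have been reported as targets of Tbx2 or Tbx3, most of them as repressed, did not share a direction. The list of 12 includes cell cycle inhibitors (Cdkn1a, Cdkn1b, Cdkn1c, Cdkn2a), the cell adhesion gene Cdh1, the growth suppressor Ndrg1, the Wnt antagonists Frzb and Shisa3, and Nppa, Gja1 and Gja5 of the heart. At 10 d 3 of 11 tested rose with BOM and 1 fell, beside 20.3% of all genes called. Ndrg1 averaged 19.6 CPM with BOM and 53.8 CPM with DMSO (log2 fold change -1.53, edgeR adjusted p = 1.39e-05). Cdkn1b averaged 346 CPM with BOM and 245 CPM with DMSO (0.43, adjusted p = 0.00370). The others that rose were Cdkn1c (0.64, adjusted p = 0.0119) and Frzb (0.99, adjusted p = 0.0190). Cdkn1c lost its call without the second BOM culture (0.48, adjusted p = 0.177) and Frzb without the first (0.72, adjusted p = 0.245) or without the second DMSO culture (0.94, adjusted p = 0.0618). The median was 0.10, against -0.01 over all genes.

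With IFNg 4 of 11 targets rose and 2 fell with BOM, beside 23.1% of all genes called, and the median was again 0.10. Cdh1, the epithelial cadherin, fell by 1.27 (edgeR adjusted p = 0.00117) and Ndrg1 by 0.90 (adjusted p = 0.00153). Frzb rose by 1.61 (edgeR adjusted p = 0.000866). Cdkn1b (0.35), Cdkn1c (0.59) and Gja1 (3.80, at low counts) also passed, but each lost the call without the second BOM plus IFNg culture (adjusted p = 0.0693, 0.253 and 0.494). Cdkn1b was not called without the first BOM plus IFNg culture either (adjusted p = 0.0664). The second DMSO plus IFNg culture likewise decided Cdkn1b (adjusted p = 0.0562 without it) and Cdkn1c (0.0859), and the third decided Gja1 (0.0616), which DESeq2 did not call (0.113). At 96 h edgeR called 0 of 9 (2 at an unadjusted p under 0.05, 0 by DESeq2). Cdkn1c had a log2 fold change of 1.34 (adjusted p = 0.410), Frzb one of 0.997 and Ndrg1 one of -0.87.

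In BOM against vehicle tumors 1 of 10 targets tested rose and 2 fell, beside 14.5% of all genes called, with a median of -0.25 against -0.02 over all genes. Cdkn1b averaged 294 CPM in BOM tumors and 398 CPM in vehicle tumors (log2 fold change -0.44, edgeR adjusted p = 0.00360), the opposite sign to the cultures. Cdkn1c averaged 71.9 CPM in BOM tumors and 44.1 CPM in vehicle tumors (0.66, adjusted p = 0.0211), a call lost without vehicle tumor 3 (adjusted p = 0.0549) and with only the groups compared (0.0631). Cdkn1a fell by 0.56 (edgeR adjusted p = 0.0446), but lost the call in 13 of 25 alternatives. In BOM plus anti-PD1 against anti-PD1 tumors 1 rose and 4 fell, beside 32.4% of all genes called, with a median of -0.30. There Cdkn1c rose by 0.73 (edgeR adjusted p = 0.00622), and Cdkn1b (-0.48, adjusted p = 0.000571) and Cdkn1a (-0.65, adjusted p = 0.0103) fell. Cdkn2a (-0.45, adjusted p = 0.0133) and Frzb (-1.49, adjusted p = 0.0365) also fell, and both lost the call without BOM plus anti-PD1 tumor 3 (adjusted p = 0.0605 and 0.107) or without tumor 1 of that group (0.0561 and 0.0977). Frzb also lost it without anti-PD1 tumor 2, 3 or 5 (adjusted p = 0.0773, 0.0889 and 0.0594), under the replicate block (0.0824) and without the filter (0.0610).

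Signals of the lung bud mesenchyme that act with Tbx4 and Tbx5, a list of 8 genes with Fgf10, Wnt2, Wnt2b, Bmp4, Foxf1, Gli1, Ptch1 and Hhip, did not pass the test in culture. At 10 d edgeR called 0 of 6 for BOM against DMSO (1 at an unadjusted p under 0.05, 0 by DESeq2) and 0 of 6 with IFNg (0 unadjusted, 0 by DESeq2). At 96 h it called 0 of 4 (1 unadjusted, 0 by DESeq2). The medians were -0.18, -0.12 and 0.53. In tumors Bmp4, a secreted growth factor, was the only one of 4 called. It averaged 1.61 CPM in BOM tumors and 4.04 CPM in vehicle tumors (log2 fold change -1.29, edgeR adjusted p = 0.0157). It averaged 1.09 CPM in BOM plus anti-PD1 tumors and 4.57 CPM in anti-PD1 tumors (-2.08, adjusted p = 0.000327). The call against vehicle was lost without BOM tumor 1 (adjusted p = 0.0511) or 3 (adjusted p = 0.0534), under the replicate block (0.0520) and with only the groups compared (0.0522), and the one with anti-PD1 held in all 25 alternatives. The median of the 4 was 0.04 in BOM against vehicle tumors and -0.04 with anti-PD1.

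Genes around Tbx2 had smaller differences in culture than Tbx2 itself. Tbx2 was chosen for its difference in those cultures, so this order was largely set by the choice. Of the 18 annotated genes within 500 kb of Tbx2 or Tbx4, 8 were tested at 10 d, and edgeR called none for BOM against DMSO (3 at an unadjusted p under 0.05, 0 by DESeq2). Their log2 fold changes ran from -0.24 to 1.63, against 4.25 for Tbx2. The highest belonged to 2610027K06Rik, a long noncoding RNA gene 0.227 kb from Tbx2 on the opposite strand. It was at 5.84 and 1.22 CPM with BOM, against 0.279, 0.982 and 2.04 CPM with DMSO, and at 4.51 and 2.76 CPM with BOM plus IFNg, against 1.49, 1.28 and 1.42 CPM with DMSO plus IFNg. The groups overlapped without IFNg and did not with it. The log2 fold changes were 1.63 ± 0.65 (SE, edgeR adjusted p = 0.0911) and 1.28 ± 0.61 (adjusted p = 0.154). Without the first BOM culture the BOM against DMSO value was 0.16, and it passed without the second BOM culture (adjusted p = 0.0240) or the third DMSO culture (adjusted p = 0.0350). Blocking on replicate number, both passed, at 1.89 (adjusted p = 0.0297) and 1.60 (adjusted p = 0.0408).

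The protein-coding neighbors had small differences. Bcas3, a cytoskeletal regulator whose gene lies 6.56 kb away, had a log2 fold change of 0.10 for BOM against DMSO. It was called with IFNg, at 0.42 (edgeR adjusted p = 0.0359), and the call was lost without any single library of the 2 groups. Brip1, a DNA repair helicase, was at -0.00, Ints2, an Integrator subunit, at -0.24, and the phosphatase gene Ppm1d at 0.33. In BOM against vehicle tumors edgeR called 0 of 6 neighbors (0 at an unadjusted p under 0.05, 0 by DESeq2). In BOM plus anti-PD1 against anti-PD1 tumors edgeR called 1 of 6 and DESeq2 2. The edgeR call was Bcas3 (0.33, adjusted p = 0.0194), lost without the filter (0.0531) and without BOM plus anti-PD1 tumor 1 (0.0588) or 3 (0.0546). Around Tbx3 and Tbx5, 2 neighbors were tested at 10 d. The RNA-binding gene Rbm19 was at -0.33 for BOM against DMSO (edgeR adjusted p = 0.165) and at -0.49 with IFNg (adjusted p = 0.0316), a call lost in 6 alternatives, among them DESeq2 (0.0524) and leaving out the first BOM plus IFNg culture (0.231) or DMSO plus IFNg culture 2 or 3 (0.0672 and 0.133). It was at -0.23 in BOM against vehicle tumors (adjusted p = 0.248) and at -0.57 in BOM plus anti-PD1 against anti-PD1 tumors (adjusted p = 0.00338).

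**Figure D5:**
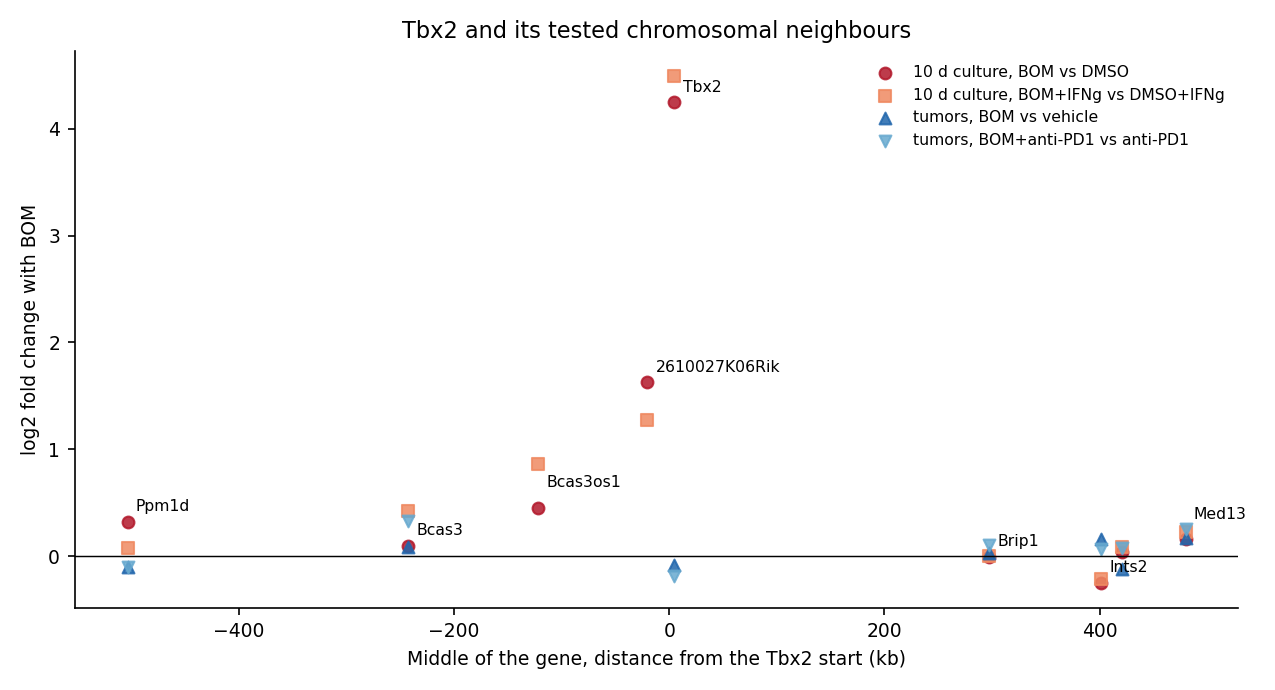
Log2 fold change of each tested gene within 500 kb of Tbx2 or Tbx4 against the distance of its middle from the Tbx2 start in kb, for 4 BOM comparisons. In the 10 d comparisons Tbx2, chosen for its higher level with BOM in culture, lies at 4.25 and 4.49. The next highest gene, 2610027K06Rik, lies at 1.63 and 1.28, and the tumor points all lie near 0.

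The genes whose levels ran most like each member were listed by Pearson r of log2 CPM, as a description over libraries that share treatment groups and depth. Over the 10 libraries of the 10 d experiment Lifr (r = 0.996), a cytokine receptor gene, Pmp22 (0.994), a myelin protein gene, and Amotl1 (0.994), a tight junction gene, were most like Tbx2. Tbx3 had r = -0.75 with Tbx2 there. Cnksr3 (0.966), Kdm4c (0.9501), a histone demethylase gene, and Upf2 (0.949), a gene of nonsense-mediated decay, were most like Tbx3. Over the 18 tumors the likeness to Tbx2 was looser, with Nid2 (0.784), a basement membrane gene, Cdk2ap2 (0.755) and Sema7a (0.749) on top, and -0.11 for Tbx3. For Tbx3 the tumor list was led by Dsc2 (0.928), a desmosomal cadherin gene, Slc25a35 (0.908) and Has3 (0.893), a hyaluronan synthase gene. None of the genes named for a member at 10 d was among those named for it in tumors.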

How the data were processed

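The authors deposited read counts per gene, in 1 table per experiment. Per the submitters' processing notes, bcl2fastq, FastQC 0.11.9, STAR 2.7, featureCounts, Subread 2.0 and build mm10 were used, without settings. Per the labels, 96 h and tumor libraries were polyadenylated RNA and 10 d libraries total RNA. All value columns were used.

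Each table was filtered with filterByExpr, which kept 13333 of 28432, 15230 of 30351 and 14332 of 29745 genes, normalized by TMM and fitted by edgeR 4.0.16 in R 4.3.3, with the line as a block at 96 h and all groups of a table in 1 fit otherwise. The residual degrees of freedom were 2, 6 and 14 and the biological coefficients of variation 0.169, 0.104 and 0.181. p-values were Benjamini-Hochberg adjusted over all genes. CPM are counts scaled to a column total of 1 M, and log2 CPM used a prior count of 2. Intervals for ratios of counts and shares are exact (Clopper-Pearson, 95%), and intervals and limits of 3 counts cover counting error only. The steps were tested on simulated data. The lowest chi-square per degree of freedom between libraries of a group was 2.45, so none was a copy.

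The 4 genes, the 3 pathway lists and the marker lists were chosen with earlier results of these data known. Of each list the members with the 3 lowest p in a BOM comparison were to be named. Other members, the markers printed by name and the neighbors other than the first were chosen after their values were seen. Some list members are not reported here. Like genes were the 3 with the highest r among genes that averaged 2 or more in log2 CPM. Neighbors came from RefSeq (GRCm38.p6). The labels do not say whether replicates were separate cultures or mice, so p-values measure only how these samples spread, which can be technical. Residuals of like-numbered DMSO plus IFNg and DMSO cultures had correlations of 0.393, 0.119 and 0.133, each over 0.1. For the second the correlation was higher, at 0.177, with a DMSO culture of another number. Like-numbered BOM plus IFNg and BOM cultures were at 0.200. An alternative, the replicate block, joined like numbers over all libraries of the 10 d or the tumor experiment. Alternatives were DESeq2 1.42.0, RLE scaling, library size alone, no filter, only the groups compared, the replicate block, each library left out, and leaving out vehicle tumors 1 and 2.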

Additional observations from a re-analysis of the deposited data

Results flagged for a closer look

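Tbx2 in BOM tumor 3 was at 3.54 CPM, against 0.890 to 1.21 CPM in the other 3 BOM tumors. Its gap to the nearest of them was 0.878 of the group's range, above Dixon's 95% critical value of 0.829 for 4 samples. It was the only value marked among 8 groups scanned, and chance marks about 1 group in 20. Without it the log2 fold change of Tbx2 in BOM against vehicle tumors was -0.71 and did not pass the test.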

How the results depend on the processing

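The Tbx2 differences in culture kept their sign under every alternative that gave a value, at 1.95 to 2.65 at 96 h, 4.07 to 4.69 for BOM at 10 d and 4.24 to 4.71 with IFNg. At 96 h Tbx2 failed the filter without G8545. The Tbx3 call in BOM against vehicle tumors held throughout, at edgeR adjusted p = 0.00130 to 0.0389 with 1 tumor left out and 0.000668 without vehicle tumors 1 and 2. Under a replicate block it was -0.43 (adjusted p = 0.0214). The block changed no call of Tbx2 or Tbx3, though Tbx2 for the interaction turned to 0.026. With the block Tbx2 was at -0.38 and Tbx3 at -0.10 for DMSO plus IFNg against DMSO.

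Most uncalled Tbx2 values changed direction under some alternative. Tbx2 in anti-PD1 against vehicle tumors did not, at 0.11 to 0.49 over 25 alternatives. With 1 library left out, Tbx2 ran from -0.59 to 0.023 (DMSO plus IFNg against DMSO), -0.43 to 0.047 (BOM plus IFNg against BOM), -0.71 to 0.13 (BOM against vehicle), -0.34 to 0.034 (BOM plus anti-PD1 against anti-PD1), -0.013 to 0.83 (BOM plus anti-PD1 against BOM) and -0.31 to 0.53 (interaction). Tbx3 ran from -1.11 to -0.081 (BOM plus IFNg against DMSO plus IFNg), -0.59 to 0.45 (BOM plus IFNg against BOM) and -0.0029 to 0.10 (anti-PD1 against vehicle). Without vehicle tumors 1 and 2 Tbx2 was at 0.13 for BOM against vehicle and Tbx3 at -0.068 for anti-PD1 against vehicle.

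Counts of called genes moved more. At 96 h there were 0, against 2 with library size, 310 without the filter, 59 by DESeq2 and 0 to 149 with 1 line left out. Left-out libraries gave 1858 to 3230 for BOM at 10 d (3094), 2095 to 3729 with IFNg (3518), 178 to 356 for BOM plus IFNg against BOM (314), 1210 to 2971 for BOM against vehicle (2082), 0 to 2 for anti-PD1 against vehicle and 0 to 1 for BOM plus anti-PD1 against BOM (1). Without the filter the IFNg counts were 548 in DMSO cultures (345) and 506 in BOM cultures. For BOM against vehicle the count was 1385 with only the groups compared and 3363 without vehicle tumors 1 and 2. For BOM plus anti-PD1 against BOM it was 0 with RLE, without the filter, with the block, with only the groups compared and without vehicle tumors 1 and 2, and 8 by DESeq2. DESeq2 gave 86 for anti-PD1 against vehicle and 6 for the interaction. The cause was not tested. Depth limits Tbx2 in tumors, Tbx4 and Tbx5.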
